A study of Homo sapiens with 16 samples.

Results

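Zinc handling was examined in Caco-2 cells through 10 genes, chosen by symbol: the metallothioneins MT1E, MT1F, MT1G, MT1H, MT1M, MT1X and MT2A, the zinc-sensing transcription factor MTF1, the zinc exporter SLC30A1 (ZnT1) and the intestinal zinc importer SLC39A4 (ZIP4). All 10 had a row among the 61228 gene rows of each count table. Caco-2, derived from a human colon carcinoma, grows into an enterocyte-like layer and was kept here on an intestinal villus-on-chip. The labels name 4 replicates of each of 4 treatments, namely static control, pathological swing, physiological swing and induction of inflammatory bowel disease (IBD). The deposited tables carry codes: IBD is the induction, NOS1 was taken as the static control by elimination, and VOS1 and VOS2 are swing tables that no label ties to either swing. The sources used here do not give the agent, its dose, how long it was applied, or the swing, if any, of the induced chips. IBD against VOS2 therefore does not separate the induction from a difference in swing. No label names a knockout, transgene or co-cultured cell type, and all groups share the same cell line. The labels do not say whether replicates came from separate cultures, so the p-values cover only the spread among these libraries, which may be technical.

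Metallothioneins are small, cysteine-rich proteins that bind zinc, copper and cadmium. When cytosolic zinc rises, MTF1 binds metal response elements in the promoters of the metallothionein genes and of SLC30A1 and raises their transcription, so that zinc is buffered and exported. SLC39A4 takes up dietary zinc at the apical membrane of enterocytes, and its loss causes the zinc deficiency disorder acrodermatitis enteropathica. The metallothionein genes lie in one cluster on chromosome 16 and are close copies of each other, so reads can be split between them or lost, and each single metallothionein value is uncertain to that extent.

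The promoters are shown because metallothionein genes and SLC30A1 are the textbook targets of MTF1. RefSeq (GRCh38.p14) promoter windows, 250 bases before to 50 bases after the gene start, were matched for 5 of the 10 members. They were searched for the metal response element core TGCACNC or TGCGCNC on both strands. Capitals mark each core as it reads on the gene's strand, and no core overlapped another in these windows. The MT2A window is chr16:56608334-56608633 on the plus strand, that of MT1X is chr16:56682220-56682519 on the plus strand, and that of SLC30A1 is chr1:211579112-211579411 on the minus strand.
MT2A: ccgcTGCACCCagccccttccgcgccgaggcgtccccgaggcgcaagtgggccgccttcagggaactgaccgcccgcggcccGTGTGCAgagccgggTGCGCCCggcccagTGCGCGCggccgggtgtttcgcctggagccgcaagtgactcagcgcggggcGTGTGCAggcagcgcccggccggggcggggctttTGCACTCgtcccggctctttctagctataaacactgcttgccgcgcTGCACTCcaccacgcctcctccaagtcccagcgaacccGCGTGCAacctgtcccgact
MT1X: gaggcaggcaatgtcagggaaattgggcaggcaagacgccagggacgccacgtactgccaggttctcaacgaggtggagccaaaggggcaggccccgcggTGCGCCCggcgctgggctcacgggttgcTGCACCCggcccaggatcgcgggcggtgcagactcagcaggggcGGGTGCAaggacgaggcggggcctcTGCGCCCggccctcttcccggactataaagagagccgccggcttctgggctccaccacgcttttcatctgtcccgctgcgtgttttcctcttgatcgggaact
SLC30A1: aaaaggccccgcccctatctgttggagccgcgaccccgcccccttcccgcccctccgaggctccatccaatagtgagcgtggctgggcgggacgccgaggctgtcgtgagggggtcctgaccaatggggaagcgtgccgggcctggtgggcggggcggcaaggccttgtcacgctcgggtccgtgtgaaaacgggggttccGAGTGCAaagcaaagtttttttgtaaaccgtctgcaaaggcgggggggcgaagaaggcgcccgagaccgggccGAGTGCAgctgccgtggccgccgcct

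The MT2A window held 8 cores, 6 of the TGCACNC form and 2 of the TGCGCNC form, from 246 bases before the start to 31 bases after it. MT1H also held 8, MT1X 4 and SLC30A1 2, with those of SLC30A1 at -49 and 25. MTF1 held 0 matches to these letters. Of 35116 RefSeq promoter windows of the same length, 29.55% held at least 1 core, 8.6% at least 2 and 0.601% at least 4. A core is a match to letters and not a measured binding site. MT1H, with 8 cores, was at 0 counts in NOS1, VOS2 and IBD, whereas MT2A, also with 8, was counted in every library. MT1X, with 4, was at 0 counts in NOS1, VOS2 and IBD but at 20 to 83 counts in the VOS1 libraries. Its annotated span lies 97.41% within another gene, AC026461.1, so its 0 was not read against its cores.

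**Figure D1:**
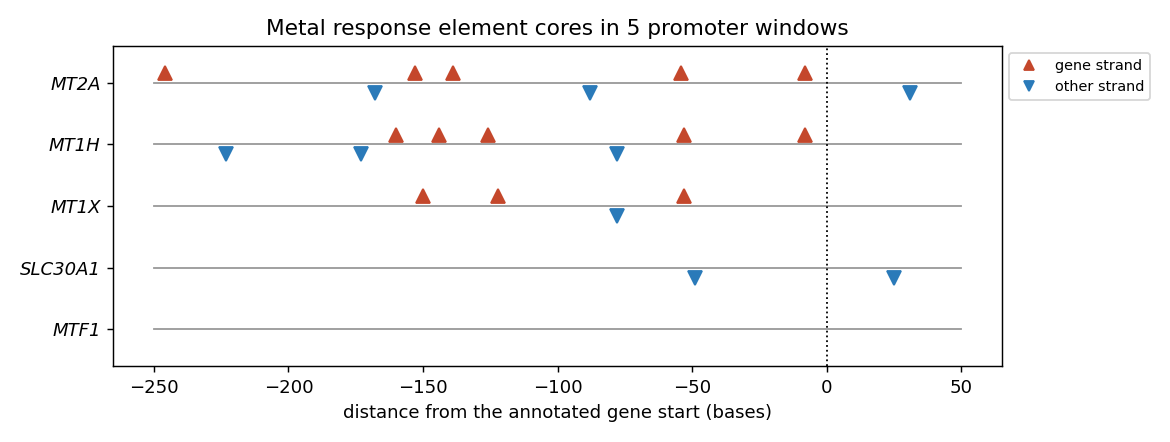
Positions of metal response element cores relative to the RefSeq gene start in 5 promoter windows, with cores on the gene's strand above each line and on the other strand below. MT2A and MT1H hold 8 cores each, MT1X 4, SLC30A1 2 and MTF1 0.

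Total counts ran from 17537880 to 20021726 in the NOS1 libraries and from 15078620 to 18865457 in those of VOS2. In IBD the lowest and highest totals were 16307998 and 20609117, and in VOS1 21868713 and 28148186. The features counted in VOS1 were shorter, with a median implied gene length of 16.02% of that in NOS1, and it is shown apart. All 10 enterocyte markers were counted in each table, with summed levels of 6597 to 8949 counts per 1000000 counts of the library (CPM) in NOS1, 7740 to 8802 CPM in VOS2 and 7143 to 7416 CPM in IBD. Most of these sums was KRT8, with means of 5147, 5312 and 4281 CPM, while LGALS4 averaged 2.41 CPM. Of the leukocyte markers PTPRC was at 0 in all 4 NOS1 libraries and at no more than 0.184 CPM elsewhere, while the summed level of the 6 markers was 12.2 to 14.6 CPM in NOS1 and VOS2 and 25.6 to 29.4 CPM in IBD, where LYZ, which epithelium also makes, was at 24.6 ± 1.74 CPM (SD, n = 4). LYZ was called higher in IBD than in VOS2 and NOS1 (log2 fold change 1.67 ± 0.11 and 1.41 ± 0.11), whereas the monocyte marker CD14 was called lower than in VOS2 (-0.74 ± 0.16, edgeR adjusted p = 0.0169). Of the other markers, FABP1 of enterocytes was called higher in IBD (1.11 ± 0.16 against VOS2, 1.02 ± 0.16 against NOS1) and LUM of fibroblasts lower (-0.91 ± 0.19 and -0.83 ± 0.19). The other 9 enterocyte markers were not called. Among them CDH17 (-0.34 and -0.21), KRT8 (-0.28 and -0.25) and VIL1 (-0.07 and -0.09) were lower in IBD, and the list medians were 0.12 and 0.06. The other 2 tested fibroblast markers were not called, with COL1A1 at 0.27 and 0.20 and COL3A1 at -0.30 and 0.03. CD14 lost its call without VOS2 replicate 1 or IBD replicate 3 or 4 (edgeR adjusted p = 0.0683, 0.0524 and 0.0558), and LUM against NOS1 without NOS1 replicate 2 or IBD replicate 1 or 3 (0.0512, 0.05002 and 0.0720). Over the 12 libraries of NOS1, VOS2 and IBD, fibroblast markers summed to 25.7 to 48.9 CPM and endothelial markers to 14.2 to 24.9 CPM. Most of the first sum was COL1A1, with a mean of 26.1 CPM, while PDGFRA, DCN and COL1A2 averaged 0.107 CPM or less. Most of the second was PECAM1, with a mean of 16.7 CPM, while CLDN5 averaged 0.240, CDH5 0.125 and KDR 0 CPM. NOS1 replicates 1 and 4 stood apart on the first principal component of these libraries (30.1% of the variance), at -56.0 and -40.6 against -6.44 or higher in the others.

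On the scale of FPKM, which divides counts by gene length and library size, MT2A had the highest mean level of the 10 genes in each of the 3 tables. In IBD the mean levels were 14.5 ± 1.09 FPKM for MT2A, 10.2 ± 1.40 for SLC30A1, 2.16 ± 0.891 for SLC39A4, 1.54 ± 0.397 for MT1F, 1.40 ± 0.332 for MT1E and 0.511 ± 0.0357 for MTF1 (SD, n = 4). The ranges of MT2A and SLC30A1 did not overlap there, while SLC39A4, MT1F and MT1E overlapped each other. In NOS1 MT2A at 15.6 ± 8.34 FPKM overlapped SLC30A1 at 14.0 ± 2.22 FPKM, and MT1E at 4.06 ± 3.16 FPKM overlapped SLC39A4 at 2.44 ± 0.325 FPKM. In VOS2 the mean of MT2A was 38.4 ± 45.6 FPKM, overlapping SLC30A1 at 16.0 ± 3.402 FPKM, and MT1E, MT1F and SLC39A4 overlapped at 2.501, 2.499 and 1.85 FPKM. MTF1 was last of the 6 in all 3 tables, at 0.511 to 0.545 FPKM. Its divisor was 50019 bp and that of MT2A was 914 bp. Each is the length of the RefSeq gene span, introns included (37809574 to 37859592 and 56608584 to 56609497). The FPKM of these genes thus divide by gene span and not by transcript length.

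MT2A, the most widely expressed human metallothionein (chromosome 16, 56608199 to 56609497 on the plus strand, GENCODE v29, GRCh38, ENSG00000125148.6), stood at 21.4, 8.32, 7.02 and 20.2 CPM in NOS1 replicates 1 to 4. In VOS2 it stood at 6.04, 6.78, 33.0 and 94.7 CPM. In IBD it stood at 12.8, 12.7, 12.8 and 14.8 CPM. Replicates 1 and 4 were the high libraries in NOS1 and replicates 3 and 4 in VOS2, while the 4 IBD libraries lay close together inside the range of both other tables. The means were 14.2 ± 7.62, 35.1 ± 41.6 and 13.3 ± 0.995 CPM (SD, n = 4).

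MT1E (chromosome 16, 56625475 to 56627112, plus strand, ENSG00000169715.14) was at 11.6, 3.31, 1.19 and 10.5 CPM in NOS1 replicates 1 to 4. VOS2 gave 2.17, 0.595, 4.14 and 9.48 CPM, and IBD gave 2.23, 2.23, 1.68 and 3.00 CPM. The libraries high in MT2A were thus also the high ones in MT1E, and all 3 tables overlapped. In NOS1 the summed level of KRT7, VIM and CD44, genes of simple epithelium and of mesenchymal cells, followed the same order, at 412.9, 88.6, 34.8 and 335.6 CPM, with none of the 3 genes at 0. The 3 genes were listed because they were reported to vary in the static group, so a spread of this sum in NOS1 was built into the choice. In VOS2 that sum was 64.8, 25.6, 56.1 and 60.8 CPM, and its part in the metallothionein values was not tested.

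MT1F (chromosome 16, 56657694 to 56660698, plus strand, ENSG00000198417.6) was at 3.75, 3.14, 3.71 and 2.84 CPM in NOS1. It was at 2.33, 3.63, 7.19 and 16.5 CPM in VOS2 and at 3.78, 3.35, 5.78 and 5.33 CPM in IBD. VOS2 replicates 3 and 4 were the high libraries again, but NOS1 replicates 1 and 4 were not apart from replicates 2 and 3, and the tables overlapped. MT1F therefore took 10.2% and 8.46% of the metallothionein counts in NOS1 replicates 1 and 4 and 21.2% and 31.2% in replicates 2 and 3. MT1E took 31.5% and 31.4% in the first pair and 22.4% and 9.96% in the second. In VOS2 it was MT2A whose share was higher in the high libraries, at 74.2% and 77.8% in replicates 3 and 4 against 57.3% and 61.6% in replicates 1 and 2. These shares are of counts and are not divided by gene length.

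**Figure D2:**
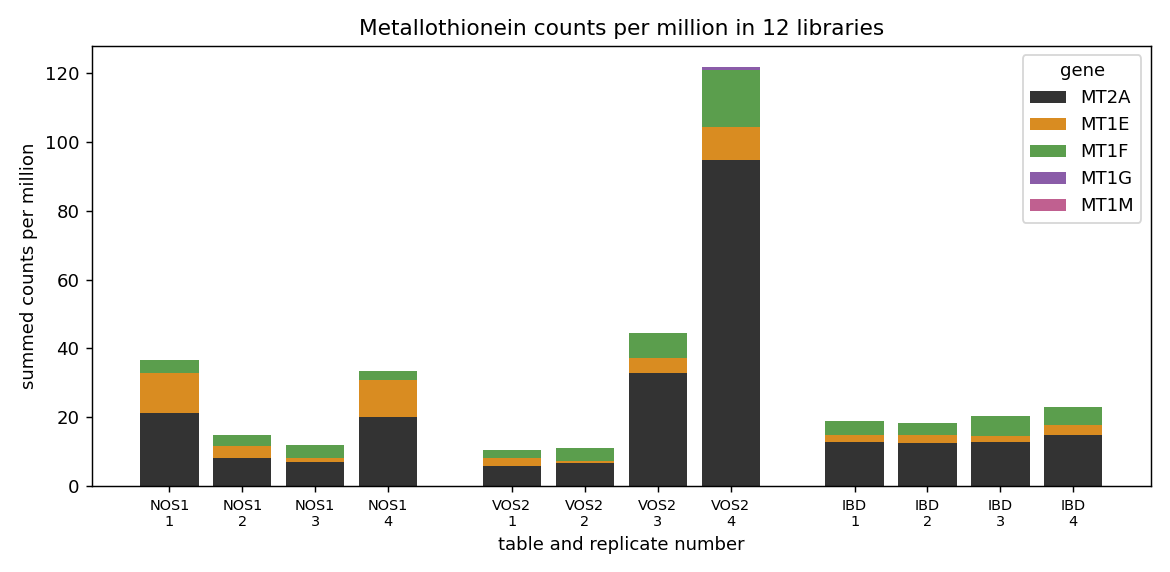
CPM of the metallothionein genes, stacked, in the 12 libraries of NOS1, VOS2 and IBD. The sum runs from 11.9 to 36.8 CPM in NOS1, 10.5 to 121.7 CPM in VOS2 and 18.3 to 23.1 CPM in IBD, with MT1E taking more of the tall NOS1 bars and MT2A more of the tall VOS2 bars.

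The other metallothioneins were at or near 0. MT1G (chromosome 16, 56666731 to 56668065, minus strand) had 0 counts in every NOS1 library, 0, 0, 3 and 13 counts in VOS2 and 1, 1, 0 and 0 counts in IBD. Its counts in VOS2 came from replicates 3 and 4, the libraries high in MT2A and MT1F, and were 0.170 and 0.862 CPM. MT1M (56632233 to 56633986, plus strand) had 2 counts, both in VOS2 replicate 4. MT1H (56669814 to 56671129, plus strand) had 0 counts in all 16 libraries. A count of 0 over the 4 libraries of a table, taken with a floor of 3 counts per table, allows a level of up to 0.0391 CPM in NOS1, 0.0439 in VOS2 and 0.0413 in IBD, for counting error only.

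MT1X (56682424 to 56684196, plus strand, ENSG00000187193.8) was at 0 in all 12 libraries of NOS1, VOS2 and IBD and at 20, 55, 24 and 83 counts in VOS1. Of its GENCODE v29 span, 97.41% lies within AC026461.1 (56682470 to 56687807) on the same strand, and the row of AC026461.1 held 0 counts in all 16 libraries. Whether the overlap set the 0 of MT1X was not tested. MT1E, MT1F, MT1G, MT1H, MT1M and MT2A overlap no other gene in that annotation.

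Differences between tables were tested for the 14773 genes that passed the filter on low counts, with edgeR's quasi-likelihood test over the 12 libraries and Benjamini-Hochberg adjustment. Of the members 6 passed the filter, and MT1G, MT1H, MT1M and MT1X did not. The 3 comparisons share libraries and are not independent of each other. Between VOS2 and NOS1 the test called 0 of the 10 members, where 0% of all genes tested were called: 0 genes passed in edgeR, 1457 had an unadjusted p under 0.05, DESeq2 called 20 and limma 0. Between IBD and VOS2 it called 1 member, SLC30A1, which was lower, where 4.56% of all genes tested were called and 2.24% were called lower. Between IBD and NOS1 it called 0 members, where 5.81% of all genes tested were called and 3.01% were called lower. DESeq2 called 1 member there, SLC30A1. In edgeR 2 of the 6 tested members, MT1E and SLC30A1, had an unadjusted p under 0.05, beside 3309 of all 14773 genes tested.

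No metallothionein difference between tables passed the threshold. MT2A had a log2 fold change of 1.29 ± 0.65 (SE) in VOS2 against NOS1 (95% interval -0.09 to 2.67, edgeR adjusted p = 0.547) and of -1.36 ± 0.65 in IBD against VOS2 (-2.75 to 0.03, adjusted p = 0.280). Without VOS2 replicate 4 alone these values were 0.10 and -0.17 (edgeR adjusted p = 0.990 and 0.921). Both turned sign without VOS2 replicates 3 and 4, to -1.14 (adjusted p = 0.645) and 1.08 (adjusted p = 0.268), an alternative chosen after seeing the data. In IBD against NOS1 MT2A was at -0.07 ± 0.66 (edgeR adjusted p = 0.964). For MT1F the value in VOS2 against NOS1 was 1.12 ± 0.44 (0.18 to 2.06, edgeR adjusted p = 0.406), which was 0.38 without VOS2 replicate 4 and -0.17 without both replicates. MT1E in IBD against NOS1 was at -1.51 ± 0.67 (-2.94 to -0.07, edgeR adjusted p = 0.202), and at 0.04 without NOS1 replicates 1 and 4.

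**Figure D3:**
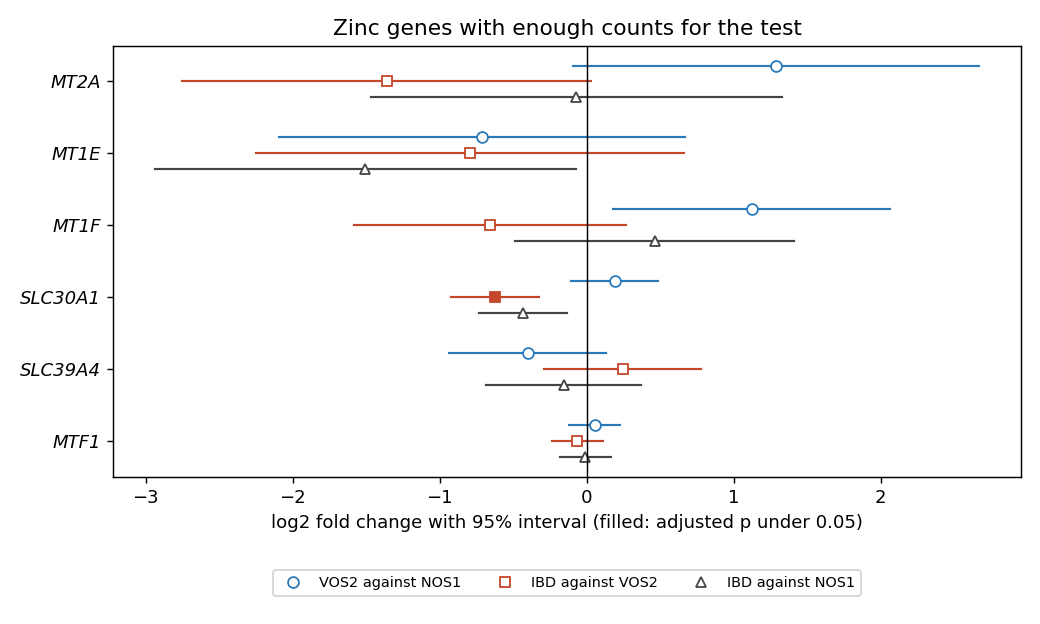
Log2 fold changes with 95% intervals from edgeR for the 6 members that passed the filter on low counts, in 3 comparisons. The metallothionein intervals are wide, those of MTF1 narrow, and the one filled marker is SLC30A1 in IBD against VOS2 at -0.63.

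The metallothioneins spread widely between replicates of the same table. The highest MT2A library exceeded the lowest by 15.7-fold in VOS2, 3.05-fold in NOS1 and 1.16-fold in IBD. The coefficient of variation of MT2A was 118.5% in VOS2, where 99.959% of the 14773 tested genes had a lower one and the median gene had 10.4%. That of MT1E was 94.5% and that of MT1F 86.3% in VOS2, above 99.851% and 99.763% of genes. In NOS1 MT1E, at 77.9%, and MT2A, at 53.5%, lay above 97.4% and 93.8% of genes, while MT1F, at 13.3%, lay near the median of 13.0%. In IBD MT2A had 7.49%, below the median gene at 13.7%. The summed level of the list of heat shock and heavy metal genes in VOS2 replicates 1 to 4 was 5895, 5890, 6511 and 7128 CPM, also highest in replicates 3 and 4. In NOS1 it was 5894, 6133, 6808 and 6488 CPM, lowest in replicate 1 and highest in replicate 3, which were the highest and the lowest libraries of MT2A there. In IBD it ranged from 5339 to 7102 CPM while MT2A hardly varied. Most of this sum came from HSPA8 and HSP90AA1, which averaged 3164 and 2046 CPM, beside 82.2 CPM for HMOX1. The sum therefore says little about the lower genes of the list, and its part in the spread was not tested.

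MT1E followed MT2A from library to library. Over the 12 libraries, 5 relations with log2 MT2A were computed, with permutation tests of 100000 resamples. The permutations ran across all 12 libraries and not within tables, so these p-values do not allow for the tables. Pearson's r with MT1E was 0.73 (permutation p = 0.00643, adjusted 0.0161) and Spearman's rho 0.79 (permutation p = 0.00317, adjusted 0.0159), and r was 0.78 without VOS2 replicates 3 and 4, the libraries farthest from the median of MT2A. With MT1F r was 0.83 (permutation p = 0.00293, adjusted 0.0147) but rho 0.60 (permutation p = 0.0434, adjusted 0.108), and r fell to 0.31 without VOS2 replicates 3 and 4, so that relation rests on them. After subtracting each table's mean, r was 0.85 with MT1E and 0.84 with MT1F, and no p was computed for these values. A single table holds too few libraries for a value of its own. Close copies can also share reads, and the part of shared reads in these relations was not tested. For SLC30A1 r was 0.49 and rho 0.37 (permutation p = 0.104 and 0.234, adjusted 0.173 and 0.391). It was -0.41 for SLC39A4 and 0.43 for MTF1, with rho at -0.20 and 0.24, and both adjusted p-values were 0.183 for r and 0.528 for rho (permutation tests). Without the same pair of libraries these 3 values of r were -0.16, 0.11 and 0.13.

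Of 11136 genes ranked by Pearson's r with the log2 summed metallothionein level over the same 12 libraries, the highest were TSPYL2 (0.91), the small MAF transcription factor MAFF (0.91), the immediate early response gene IER5 (0.91), WBP2 (0.90) and SWAP70 (0.89). The lowest were IARS2, a mitochondrial isoleucyl-tRNA synthetase, at -0.84, and TRAF3IP2, an adaptor of interleukin-17 signalling, at -0.81. MAFF was at 15.6, 12.4, 31.7 and 48.3 CPM in VOS2 replicates 1 to 4, and IER5 at 45.3, 41.1, 59.6 and 75.0 CPM. Both were highest in the VOS2 libraries that were high in MT2A, which the ranking itself selects for. The same holds for the highest library of the 5 genes at the top, VOS2 replicate 4, which they shared with MT2A. The 12 libraries carry these values with no test.

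SLC30A1, the exporter that moves zinc out of the cytosol across the plasma membrane, was the member that differed between tables (chromosome 1, 211571568 to 211578742, minus strand, ENSG00000170385.9). It was at 118.9, 81.4, 112.5 and 112.3 CPM in NOS1 and at 110.4, 104.0, 112.6 and 160.2 CPM in VOS2. In IBD it was at 81.4, 69.7, 90.6 and 67.8 CPM. Every IBD library lay below every VOS2 library, a gap that was not counted over all genes tested. NOS1 replicate 2, the lowest static library, lay within the IBD range. The means were 106.3 ± 16.8 CPM in NOS1, 121.8 ± 25.8 CPM in VOS2 and 77.4 ± 10.6 CPM in IBD (SD, n = 4). IBD showed 1.54-fold less SLC30A1 than VOS2, with a log2 fold change of -0.63 ± 0.14 (SE, 95% interval -0.92 to -0.33, edgeR adjusted p = 0.0196). Against NOS1 it was at -0.43 ± 0.14, a ratio of 1.35, which did not pass (edgeR adjusted p = 0.0809). In VOS2 against NOS1 the value was 0.19 ± 0.14 (edgeR adjusted p = 0.731). In bulk RNA, fewer cells of a type and less RNA per cell cannot be told apart.

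The call of SLC30A1 in IBD against VOS2 kept its direction in 20 of 20 alternatives, from -0.70 to -0.44, and passed the threshold in 14. It was lost without VOS2 replicate 4 (-0.46, edgeR adjusted p = 0.0743) and without IBD replicate 4 (-0.57, adjusted p = 0.0799). Without both VOS2 replicates 3 and 4 it was -0.44 (adjusted p = 0.217). The summed level of the hypoxia genes, at 2723, 1962, 5466 and 3907 CPM in IBD replicates 1 to 4, set IBD replicates 3 and 4 apart. Without these libraries the SLC30A1 value was -0.67 and the call was lost (edgeR adjusted p = 0.0858). The part of the hypoxia genes' difference in SLC30A1 was not tested. The contrast that separates both IBD comparisons, VOS2 against NOS1, did not pass for SLC30A1.

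**Figure D4:**
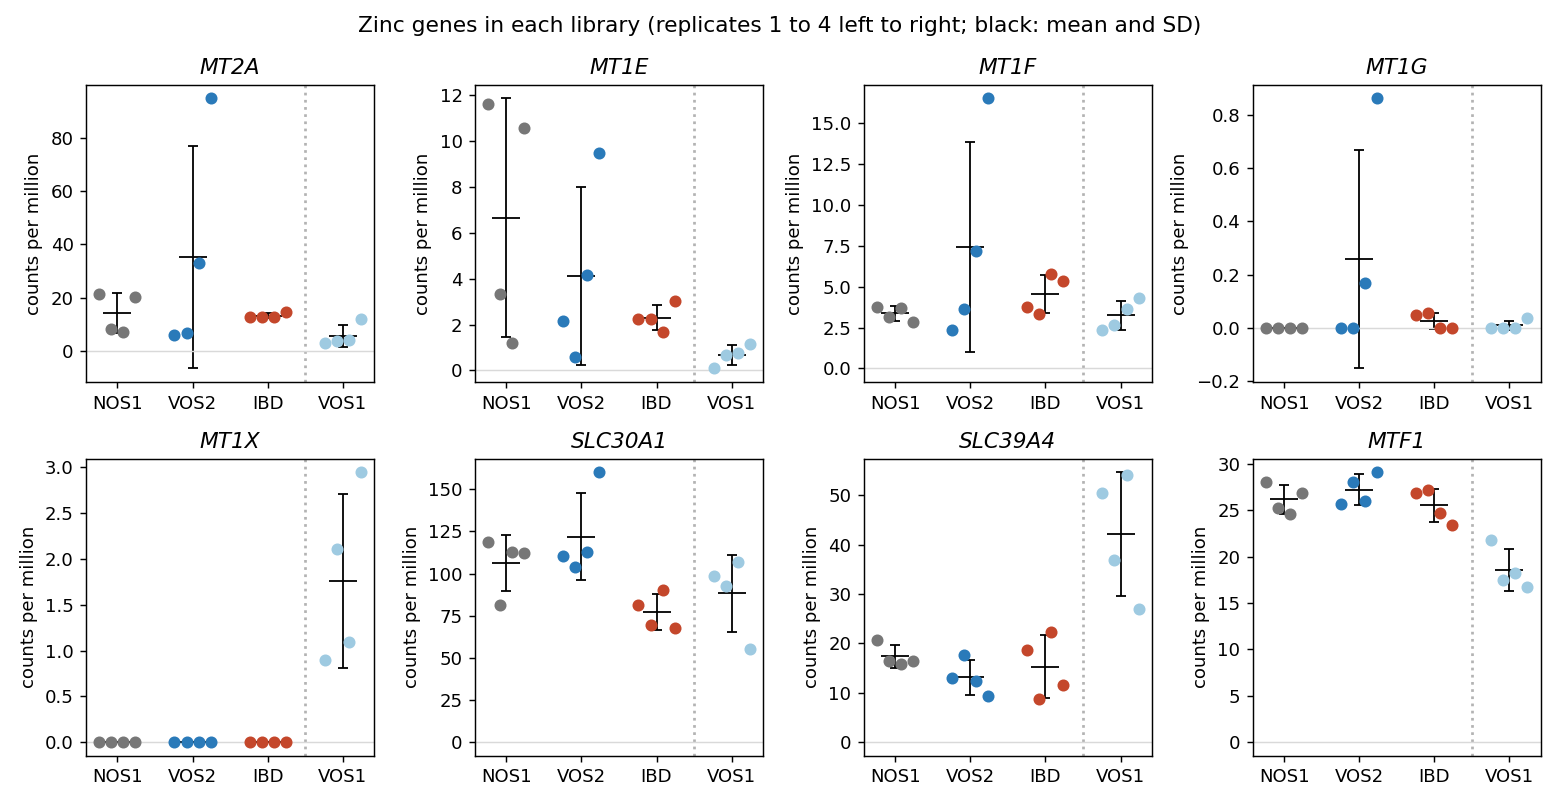
CPM of 8 members in each library, with replicates 1 to 4 from left to right and the mean and SD in black. Counting in VOS1, right of the dotted line, used shorter features. All 4 IBD libraries of SLC30A1 (67.8 to 90.6 CPM) lie below the VOS2 libraries (104.0 to 160.2 CPM). How many of all genes show such a gap was not counted.

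SLC39A4, the apical zinc importer on chromosome 8, minus strand (ENSG00000147804.9), was at 20.8, 16.4, 15.7 and 16.5 CPM in NOS1. It was at 13.0, 17.7, 12.5 and 9.28 CPM in VOS2 and at 18.7, 8.64, 22.4 and 11.5 CPM in IBD. NOS1 replicate 1 was apart from the other static libraries, IBD held both the highest and the lowest of the 12 values, and the 3 tables overlapped. Its log2 fold change was -0.40 ± 0.25 in VOS2 against NOS1, 0.25 ± 0.25 in IBD against VOS2 and -0.16 ± 0.25 in IBD against NOS1 (SE, edgeR adjusted p = 0.651, 0.658 and 0.755). A stretch of 3.28% of its span is covered by another annotated gene on the opposite strand.

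MTF1, the zinc sensor (chromosome 1, 37809567 to 37859620, minus strand, ENSG00000188786.9), was at 28.1, 25.2, 24.6 and 26.9 CPM in NOS1. VOS2 gave 25.7, 28.1, 26.1 and 29.1 CPM, and IBD gave 26.8, 27.2, 24.7 and 23.4 CPM. The 12 libraries lay close together and the tables overlapped. The log2 fold change was 0.05 ± 0.08 in VOS2 against NOS1 (95% interval -0.12 to 0.23), -0.06 ± 0.08 in IBD against VOS2 (-0.24 to 0.11) and -0.01 ± 0.08 in IBD against NOS1 (-0.18 to 0.16), with edgeR adjusted p-values of 0.903, 0.730 and 0.956. These intervals were narrower than those of the metallothioneins.

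Other zinc exporters of the SLC30 family were tested for 7 of 10 listed genes. In IBD against VOS2 1 was lower and 0 higher, with a median log2 fold change of 0.02 beside -0.01 over all genes. In the other 2 comparisons 0 were called, with medians of 0.05 in VOS2 against NOS1 and -0.06 in IBD against NOS1. The called gene was TMEM163, a zinc transporter of intracellular vesicles and the plasma membrane, at 7.69, 7.67, 8.38 and 8.36 CPM in VOS2 and 5.05, 5.24, 6.12 and 4.97 CPM in IBD. All IBD libraries were below all VOS2 libraries, a gap that was not counted over all genes tested. The log2 fold change was -0.56 ± 0.13, a 1.47-fold difference (edgeR adjusted p = 0.0287). That call was lost in 11 of 20 alternatives, among them the omission of single VOS2 libraries, with adjusted p up to 0.256. Of the untested exporters, SLC30A4 averaged 0, 0.0149 and 0 CPM in NOS1, VOS2 and IBD but 6.05 CPM in VOS1. SLC30A3 and SLC30A8 averaged at most 0.341 CPM in any table.

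Zinc importers of the SLC39 family other than SLC39A4 were tested for 9 of 13 listed genes. In IBD against NOS1 1 was lower and 0 higher, with a median of -0.04 beside -0.02 over all genes, and 0 were called in the other 2 comparisons, with medians of -0.01 in VOS2 against NOS1 and 0.07 in IBD against VOS2. The called gene was SLC39A8, a zinc, manganese and iron importer, at 23.3, 7.64, 6.29 and 15.1 CPM in NOS1 and 6.21, 6.36, 4.49 and 6.25 CPM in IBD. NOS1 replicates 1 and 4 were high, and the other static libraries reached down to the IBD range. The log2 fold change of -1.13 ± 0.31 (edgeR adjusted p = 0.0455) was -0.25 without NOS1 replicates 1 and 4 (adjusted p = 0.572), and -0.71 without replicate 1 (adjusted p = 0.119). In VOS2 SLC39A8 was at 5.04 to 6.31 CPM, and VOS2 against NOS1 gave -1.24 ± 0.31 (edgeR adjusted p = 0.319). Its span overlaps 2 other annotated genes. Of the untested importers, SLC39A2 and SLC39A3 had 0 counts in NOS1, VOS2 and IBD but averaged 9.51 and 16.8 CPM in VOS1. SLC39A1 averaged at most 0.0414 CPM in those tables and 1.56 CPM in VOS1, while SLC39A12 averaged at most 0.110 CPM in any table. Absence from the test therefore does not show absent expression.

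**Figure D5:**
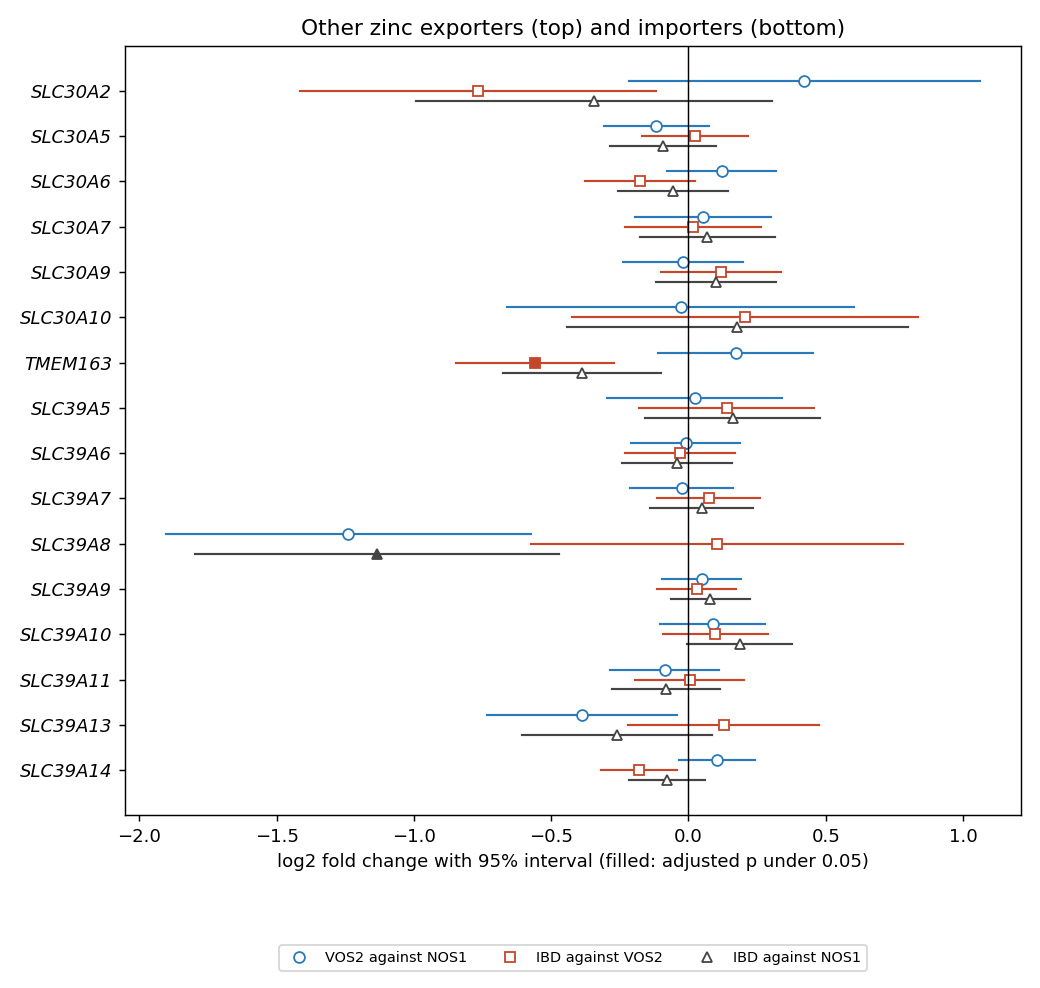
Log2 fold changes with 95% intervals from edgeR for the other zinc exporters and importers that passed the filter, in 3 comparisons. The filled markers are TMEM163 in IBD against VOS2 at -0.56 and SLC39A8 in IBD against NOS1 at -1.13.

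Among genes of copper handling, 10 of 12 were tested and 1 was called in 1 comparison. STEAP2, a metalloreductase, was higher in IBD than in NOS1, at 22.4 ± 1.48 against 15.8 ± 1.19 CPM (SD, n = 4; log2 fold change 0.53 ± 0.12, edgeR adjusted p = 0.0217). The call was lost without NOS1 replicate 1 or 4 (edgeR adjusted p = 0.0559 and 0.0668) or IBD replicate 4 (0.0685). The list's medians were -0.01 in VOS2 against NOS1, 0.10 in IBD against VOS2 and 0.05 in IBD against NOS1. STEAP2 overlaps its annotated antisense gene, and as no source here says whether strand was used in counting, its counts are uncertain.

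Genes induced by heat shock and heavy metals, which share stimuli with the metallothioneins, were tested for 10 of 13 listed. In each IBD comparison 3 were lower and 0 higher, with medians of -0.27 against VOS2 and -0.17 against NOS1. In VOS2 against NOS1 0 were called, with a median of 0.03. The 3 genes were GCLM, a subunit of the enzyme that begins glutathione synthesis, the cystine transporter SLC7A11 and the thioredoxin reductase TXNRD1, which are known for the oxidative stress response and are not heat shock proteins. GCLM was at 40.1 ± 6.30 CPM in IBD against 64.8 ± 11.7 in VOS2 and 69.5 ± 18.6 in NOS1. SLC7A11 was at 16.4 ± 1.45 CPM in IBD against 29.04 ± 2.23 in VOS2 and 29.5 ± 5.19 in NOS1, with log2 fold changes of -0.79 ± 0.12 and -0.82 ± 0.12 (edgeR adjusted p = 0.00135 and 0.00128). It overlaps an annotated antisense gene. TXNRD1 was at 286.7 ± 36.6 CPM in IBD, 420.3 ± 88.9 in VOS2 and 431.8 ± 59.2 in NOS1. The calls of SLC7A11 held in 20 of 20 alternatives in each comparison, while those of GCLM and TXNRD1 were lost without IBD replicate 3 or 4, with TXNRD1 at -0.37 against VOS2 without VOS2 replicate 4 (edgeR adjusted p = 0.138). Against NOS1 both were also lost without NOS1 replicates 1 and 4, with GCLM at -0.43 in place of -0.77 (edgeR adjusted p = 0.190) and TXNRD1 at -0.42 in place of -0.57 (0.177).

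Glucocorticoids also induce metallothioneins, and of that list 7 of 9 genes were tested. TSC22D3 (GILZ), a glucocorticoid-induced leucine zipper protein, was lower in IBD than in NOS1 (log2 fold change -2.31 ± 0.53, edgeR adjusted p = 0.0224), and no other gene of the list was called in any of the 3 comparisons. It was at 20.9, 4.33, 1.70 and 10.9 CPM in NOS1 replicates 1 to 4, the order that MT1E showed there, and at 1.57 to 2.04 CPM in IBD. Without NOS1 replicates 1 and 4 the value was -0.69 (edgeR adjusted p = 0.347). Medians of the list were -0.10, -0.02 and 0.05 in VOS2 against NOS1, IBD against VOS2 and IBD against NOS1. Of the 10 hypoxia genes, 6 were higher in IBD than in VOS2 and 5 higher than in NOS1, with 0 lower and medians of 1.709 and 1.498. The called genes were ANKRD37, BNIP3, NDRG1, PDK1 and PFKFB4 in both comparisons and CA9 in the comparison with VOS2, where its adjusted p was 0.0287 and that against NOS1 was 0.0561 in edgeR. NDRG1, the called gene of the highest mean level, stood at 529.0, 121.9, 1956 and 1098 CPM in the 4 IBD replicates, so that replicate 2 was below the VOS2 libraries (131.5 to 195.6 CPM) while replicates 3 and 4 were highest. Without IBD replicates 3 and 4 none of these calls passed in edgeR. NDRG1 was then at a log2 fold change of 1.08 against VOS2 in place of 2.61 (adjusted p = 0.294), ANKRD37 at 1.14 in place of 3.07 (0.255) and BNIP3 at 0.76 in place of 1.85 (0.162). The call of CA9 was also lost without any single VOS2 library or IBD replicate 3 or 4 (edgeR adjusted p = 0.0768 to 0.0952). Of 14 further rows listed beside the metallothioneins, 1 passed the filter and was not called. It was TESMIN, which is not an MT1 or MT2 gene. MT1A averaged 0.346 CPM in NOS1, 0.526 in VOS2 and 0.396 in IBD and did not pass the filter.

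In the swing table VOS1, MT2A was at 3.12, 3.76, 4.07 and 12.0 CPM, with replicate 4 apart from the rest. Its implied length was 914 bp in VOS1 as in the other tables, and its mean level was 6.28 ± 4.59 FPKM. MT1E was at 0.0893, 0.690, 0.777 and 1.14 CPM and MT1F at 2.37, 2.68, 3.61 and 4.33 CPM, with implied lengths of 1052 and 1852 bp against 1638 and 2968 bp elsewhere. MT1G had 1 count in VOS1, in replicate 4, and MT1X was at 1.76 ± 0.953 CPM (SD, n = 4). SLC30A1 was at 98.4, 92.4, 106.6 and 55.5 CPM, and SLC39A4 at 50.5, 37.0, 54.1 and 26.9 CPM. Every VOS1 library of SLC39A4 was above every library of the other tables, a gap that was not counted over all genes. The implied length of SLC39A4 was 4982 bp against 7103 bp. MTF1 was at 21.8, 17.4, 18.2 and 16.7 CPM with 7989 bp against 50019 bp. In the other lists, ATP7A, DUSP1 and SRXN1 had 0 counts in NOS1, VOS2 and IBD and averaged 20.9, 46.5 and 9.62 CPM in VOS1. Some listed rows at 0 in those tables, such as MT3, MT4 and KDR, were at 0 in VOS1 as well. The way of counting and the treatment cannot be told apart for VOS1, and no test was made.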

How the data were processed

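RNA of 16 Caco-2 libraries was captured on polyT and sequenced. Per the submitters' processing notes, the build was hg38 and the tools were STAR 2.7.11a, featureCounts 2.0.6, DESeq2 1.42.0, fastp 0.23.4 and FastQC 0.12.1; the sources used here give neither settings nor strand. The authors deposited raw counts, whole numbers per gene, in 4 tables, and FPKM in 4 more; 0 of 32 value columns were left unused. Columns carry the table code, which gave the group.

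CPM are counts per 1000000 counts of the library. edgeR 4.0.16 in R 4.3.3 fitted 12 libraries with TMM scaling, the default low-count filter and no replicate block; the threshold was an adjusted p of 0.05. The test was checked on simulated counts. Alternatives were DESeq2 1.42.0, limma 3.58.1 on log2(FPKM + 1) and log2(FPKM + 0.1), other scalings and filters, all 16 libraries, the 2 tables alone, a block, and libraries left out. The members and lists were chosen with earlier results of these data known. Named by rule were all members, listed genes past the threshold, and the 5 highest and 2 lowest genes by likeness. Some other listed genes are named beside them. Libraries left out in pairs from VOS2 were chosen after seeing the data. Counts of rows with 0 allow up to 3 counts.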

Additional observations from a re-analysis of the deposited data

Results flagged for a closer look

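Groups of 4 libraries were examined 29 times for a single library far from the rest, and 6 stood out. The cut-off marks about 1 in 20 groups by chance if values are normally distributed, which was not tested for these CPM. A group with a single nonzero library always passes it. The 6 of 29 were therefore not read as more than chance would give. MT2A in IBD replicate 4 reached 14.8 CPM, while the remaining IBD libraries lay at 12.7 to 12.8 CPM. In VOS1 replicate 4 it was at 12.0 CPM, against 3.12 to 4.07 CPM. SLC30A1 in VOS2 replicate 4 was at 160.2 CPM, against 104.0 to 112.6 CPM. SLC39A4 in NOS1 replicate 1 was at 20.8 CPM, against 15.7 to 16.5 CPM. MT1M in VOS2 replicate 4, at 0.133 CPM, and MT1G in VOS1 replicate 4, at 0.0355 CPM, were the only nonzero libraries of their tables and rest on 2 counts and 1 count.

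VOS1 took no part in a test, and 2 members were higher in each of its libraries than in any NOS1 library. MT1X had a mean of 1.76 CPM in VOS1 and 0 in NOS1. SLC39A4 had a mean of 42.1 CPM in VOS1, against 15.7 to 20.8 CPM in the NOS1 libraries. In the other direction, MT1E (mean 0.673 against 6.66 CPM) and MTF1 (18.5 against 26.2 CPM) were lower in each VOS1 library than in any NOS1 library. How many of all genes are apart in this way was not counted, and VOS1 was counted over shorter features.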

How the results depend on the processing

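Over the members, 332 of 366 values under an alternative kept their direction and their side of the threshold, 25 turned sign, 6 lost a call and 3 gained one. The 6 lost calls are SLC30A1 in IBD against VOS2, also with all 16 libraries (edgeR adjusted p = 0.0598) and with limma on log2(FPKM + 1) (adjusted p = 0.0549); the 3 gained are SLC30A1 in IBD against NOS1, under DESeq2, without the filter and without NOS1 replicate 2 (edgeR adjusted p = 0.0386). Members called were thus 0 in IBD against VOS2 under all 16 libraries, limma on log2(FPKM + 1), and without VOS2 or IBD replicates 3 and 4 (0 to 1 with single libraries left out), and 1 in IBD against NOS1 under DESeq2 and without the filter (0 to 1 likewise). For the listed genes, 385 of 559 values were unchanged in call and 174 lost it, with 0 reversed.

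Genes called in IBD against NOS1 (858) were 1373 with DESeq2, 1294 without the filter, 397 and 349 with limma on log2(FPKM + 0.1) and log2(FPKM + 1), 233 with the 2 tables alone, 155 without IBD replicates 3 and 4, 362 without NOS1 replicates 1 and 4, and 305 to 1351 with single libraries left out. In IBD against VOS2 (674) they were 1065 with DESeq2, 222 without IBD replicates 3 and 4, 139 without VOS2 replicates 3 and 4, and 316 to 961 with single libraries left out. In VOS2 against NOS1 (0) they were 20 with DESeq2, 255 without the filter and 0 to 376 with single libraries left out, 376 without NOS1 replicate 3.

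Sign changes (log2) without NOS1 replicates 1 and 4 were MT1E in IBD against NOS1 (0.042) and VOS2 against NOS1 (0.82), MT2A in IBD against NOS1 (0.80) and MTF1 in IBD against NOS1 (0.044). Without VOS2 replicates 3 and 4 they were MT1E (0.74), MT1F (0.65) and MT2A (1.08) in IBD against VOS2, and MT1F (-0.17) and MT2A (-1.14) in VOS2 against NOS1; without both pairs, -0.23 and -0.29. Without IBD replicates 3 and 4 MTF1 was at 0.062 against NOS1 and 0.0083 against VOS2. MT2A in IBD against NOS1 was at 0.071 and 0.057 with limma. Single libraries left out gave, in IBD against NOS1, -0.29 to 0.19 for MT2A, -0.035 to 0.029 for MTF1 and -0.39 to 0.046 for SLC39A4, and in IBD against VOS2, -1.15 to 0.022 for MT1E and -0.96 to 0.092 for MT1F. The cause of these changes was not tested.

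Same-numbered libraries did not deviate together (correlations of -0.23 to 0.19), so the numbers were not taken as a pairing. With the replicate number as a block, 418 genes were called in IBD against VOS2 and MT2A in IBD against NOS1 was at 0.042; member calls were unchanged. Counts of MT1G, MT1H and MT1M were too few for a test at this depth; the cause of the 0 of MT1X in 12 libraries was not tested.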
